A study of Mus musculus with 6 samples.

Results

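The switch from the early to the late response was read from the 2 libraries of mouse hippocampal neurons kept for 3 h in KCl against the 2 libraries kept in it for 0.5 h, 4 of the 6 libraries of the series. All groups are primary neurons of C57bl/6 embryos at E16.5, grown for 10 days, with no genetic change named. The KCl groups received 55 mM KCl and the untreated group none. The untreated libraries served as the starting level and added to the estimate of the spread. Values were given for 21553 genes, and the 15895 that passed a minimum count entered the test. A gene that passed only through the group where it is high had to differ, so counts refer to the genes tested.

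Raised KCl depolarises neurons, opens voltage-gated calcium channels and starts a transcription programme. Immediate early genes are switched on without new protein synthesis, and many encode transcription factors that act on a later wave of genes. That later wave holds secreted factors, synaptic proteins and inhibitors of the signals that started the response. The messenger RNAs of many immediate early genes are short-lived, so their level can fall within hours once transcription slows.

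Libraries held from 98882007 to 141865913 counts. That leaves counting error small beside the replicate spread for well-expressed genes, but it need not be small for genes near 0 cRPKM. Replicates differed by a mean chi-square per gene of 98.9 without KCl, 103.2 at 0.5 h and 204.0 at 3 h, so the 3 h pair was the least alike. The labels speak of biological duplicates without naming the source that was duplicated, and p-values here cover the spread of these libraries alone, which may be technical. Pan-neuronal markers summed to between 2198 and 3622 cRPKM per library (the read density per gene length and library size that the authors deposited), astrocyte markers to between 1227 and 2447, microglial markers to between 9.23 and 11.92 and endothelial markers to between 1.64 and 2.09. No marker of these lists was at 0 in all libraries. Choroid plexus and ependymal markers summed to 4.86, 5.14 and 5.47 cRPKM in the replicate 1 libraries and to 144.6, 199.0 and 239.7 in the replicate 2 libraries (untreated, 0.5 h and 3 h). In cultures of mixed cells, fewer cells of a type and less RNA per cell cannot be told apart.

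Between 0.5 h and 3 h, 2477 of 15895 genes were called higher (15.6%) and 2484 lower (15.6%), by edgeR's quasi-likelihood test with replicate number as a block and a Benjamini-Hochberg adjusted p under 0.05. The change was at least 2-fold for 627 of the genes called higher (3.94% of genes tested) and for 306 of those called lower (1.93%). Both replicate pairs moved in the direction of the call for all 2477 and all 2484. A test blocked by replicate number makes this likely for any gene called. Both 3 h libraries lay beyond both 0.5 h libraries for 2332 of the genes called higher and 2314 of those called lower. Without the block the counts were 1015 and 774, all also called with it. Of the calls, 49.9% were higher with TMM scaling, 34.7% with scaling by library totals, 52.8% with DESeq2 and 33.7% with limma. The median log2 difference over all genes tested was -0.03. Leaving out a 0.5 h library lowered the counts, to 1191 and 790 without replicate 1 and to 998 and 680 without replicate 2. Without 3 h replicate 1 they were 5006 and 5487, and without 3 h replicate 2, 4613 and 4180. The fitted biological coefficient of variation was 9.72% with all libraries, 2.98% without 3 h replicate 1 and 2.94% without 3 h replicate 2. A fit that leaves 1 library in a group takes its spread from the other groups alone. Without a 3 h library it holds no spread of the 3 h pair, the least alike. Counts of calls from such fits are therefore not comparable with those of the main fit.

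Genes were sorted by their course. Those at least 1.5-fold above untreated neurons at 0.5 h, with both 0.5 h libraries above both untreated ones and at least 1 cRPKM in a group, numbered 64. This was a rule of size with no test. Between the times 2 of the 64 were called lower, 28 higher and 34 neither. Another 14 genes were at least 1.5-fold below untreated neurons at 0.5 h by the same rule. Late starters were within 1.2-fold of untreated neurons at 0.5 h and called at least 2-fold higher at 3 h than at 0.5 h. There were 309 of them, and 171 genes fell late by the mirror rule. The 0.5 h libraries enter both the sorting and the test, so the class counts are descriptions. No library was taken between 0.5 h and 3 h, so a peak or dip between the times would not be seen. Of the 627 genes called at least 2-fold higher, 309 were late starters, 19 were among the 64, 2 were among the 14, 243 stayed under 1 cRPKM in every group and 54 had another course. Of the 306 called at least 2-fold lower, 171 fell late, 1 was among the 64, 1 was among the 14, 125 stayed under 1 cRPKM and 8 had another course.

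**Figure D1:**
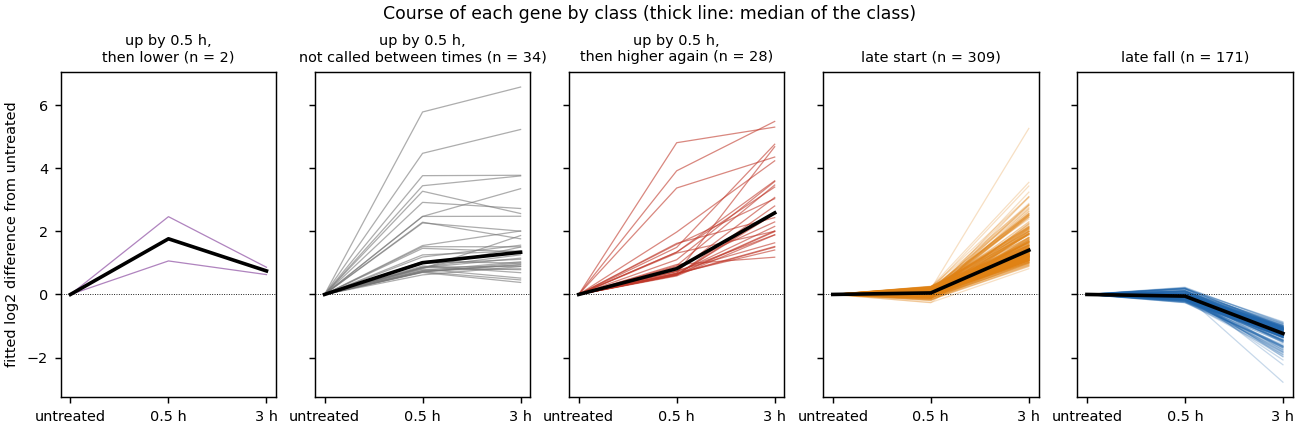
Fitted log2 difference from untreated neurons (y axis) at 0.5 h and 3 h (x axis), with 1 thin line per gene and the class median as a thick line. The panels hold 2 genes that were up by 0.5 h and then lower, 34 up by 0.5 h and not called between the times, 28 that were higher again, 309 late starters and 171 late falls. The 2 genes called lower are still above untreated neurons at 3 h.

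Of the 64 rapid genes, 2 were called lower by 3 h. In each alternative fit the class was formed anew, so its members need not be among the 64. The number was 11 without 3 h replicate 1, 4 without 3 h replicate 2, 3 and 1 without 0.5 h replicates 1 and 2, 3 and 4 without untreated replicates 1 and 2, and 1 without the block. Egr1 (ENSMUSG00000038418), a zinc finger transcription factor used as a marker of neuronal activity, stood at 36.00 and 17.23 cRPKM in untreated neurons, 159.54 and 124.83 at 0.5 h and 48.79 and 39.71 at 3 h. Both 3 h libraries were far below both 0.5 h libraries and above both untreated ones. The fall from 0.5 h to 3 h was 3.04-fold, a log2 difference of -1.60 ± 0.19 (SE; 95% interval -2.10 to -1.11; adjusted p = 0.0076, edgeR, and 0.0504 without the block). Tob1 (ENSMUSG00000037573), an antiproliferative protein that recruits the deadenylase complex to messenger RNA, stood at 14.73 and 15.77 cRPKM, then 29.76 and 35.04, then 21.26 and 24.21. It fell by 0.43 ± 0.07 on the log2 scale, 1.35-fold (adjusted p = 0.012), and stayed 1.55-fold above untreated neurons. Its adjusted p was 0.086 without 0.5 h replicate 1 and 0.219 without 0.5 h replicate 2, so its call needs both libraries. Egr1 kept its call without any single library.

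A looser rule of 1.2-fold by 0.5 h, added after the values were seen, gave 6 genes called lower at 3 h. Besides Egr1 and Tob1 they were Gli2, a transcription factor of hedgehog signalling (log2 difference between the times -0.92), Mertk, a receptor tyrosine kinase for the uptake of dying cells (-0.87), Mbd6 (-0.29) and Arhgef1 (-0.29). Mertk stood at 3.79 and 4.19 cRPKM in untreated neurons, 4.60 and 5.16 at 0.5 h and 2.35 and 2.71 at 3 h. It went from above both untreated libraries to below both.

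Egr2, a relative of Egr1, had the same shape without passing the test. Egr2 was at 1.25 and 0.62 cRPKM in untreated neurons, 8.26 and 9.73 at 0.5 h and 4.92 and 5.57 at 3 h, a log2 difference of -0.71 ± 0.29 between the times (95% interval -1.45 to 0.04; adjusted p = 0.12, edgeR). The groups did not overlap. DESeq2 and the fit of the 4 KCl libraries alone called Egr2 lower. Its log2 difference was -0.60 without 3 h replicate 1 and -0.80 without 3 h replicate 2. It was -0.97 without 0.5 h replicate 1 and -0.70 without untreated replicate 1 or replicate 2. The transcript Gm10382 also had both 3 h libraries (1.2 and 1.25 cRPKM) below both 0.5 h ones (1.56 and 2.22; log2 difference -0.53 ± 0.20, adjusted p = 0.098).

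The 34 genes not called between the times hold many of the classical rapid factors. Their median was 2.01-fold above untreated neurons at 0.5 h and 2.53-fold at 3 h, and 31 of them were still at least 1.5-fold above at 3 h. The fitted difference between the times was below 0 for 12 of the 34, and in 16 the 2 replicate pairs moved in opposite directions. Dusp1, a phosphatase that switches off MAP kinases, stood at 36.38 and 38.72 cRPKM at 0.5 h and 33.41 and 38.12 at 3 h, against 7.48 and 5.87 in untreated neurons. Its log2 difference between the times was 0.01 ± 0.13 (95% interval -0.32 to 0.33), so a 2-fold change in either direction lies outside the interval. Btg2, an antiproliferative relative of Tob1 outside the naming rule, went from 31.31 and 34.06 to 32.46 and 29.51 cRPKM (95% interval of the log2 difference -0.27 to 0.26). Ccn1, a matrix protein, stood at 40.51 and 33.30, then 27.66 and 43.99. Ier2, an immediate early nuclear protein, stood at 42.24 and 34.07, then 39.28 and 23.05 (log2 difference -0.26 ± 0.14, adjusted p = 0.19).

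For several factors of this group the replicates disagreed on the course after 0.5 h or were far apart at 3 h. Arc, which shapes synapses by taking up AMPA receptors, stood at 27.04 and 36.48 cRPKM at 0.5 h and 28.62 and 23.16 at 3 h. The AP-1 member Junb stood at 106.78 and 119.19, then 174.66 and 92.39. For both, the first replicate was higher at 3 h than at 0.5 h and the other was lower. Fosb, also an AP-1 member, went from 63.59 and 61.13 to 129.45 and 74.96 cRPKM (log2 difference 0.79 ± 0.39, adjusted p = 0.17, edgeR). Npas4 (ENSMUSG00000045903), a neuronal activity factor of the bHLH-PAS family, went from 111.30 and 100.76 to 231.38 and 120.01 (0.76 ± 0.24, adjusted p = 0.067). Egr4 stood at 25.05 and 36.74, then 69.17 and 36.91 (0.88 ± 0.40, adjusted p = 0.15). In these 3 genes both 3 h libraries were above both 0.5 h ones, with replicate 1 the higher. Several differences in this group changed sign with the 3 h library that was kept. Without 3 h replicate 1 the log2 difference was -0.40 for Junb, -0.59 for Arc and 0.42 for Ccn1. Without 3 h replicate 2 it was 0.91 for Junb, 0.19 for Arc and -0.41 for Ccn1. Ier2 had -0.42 without 3 h replicate 1 and -0.26 with all libraries.

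**Figure D2:**
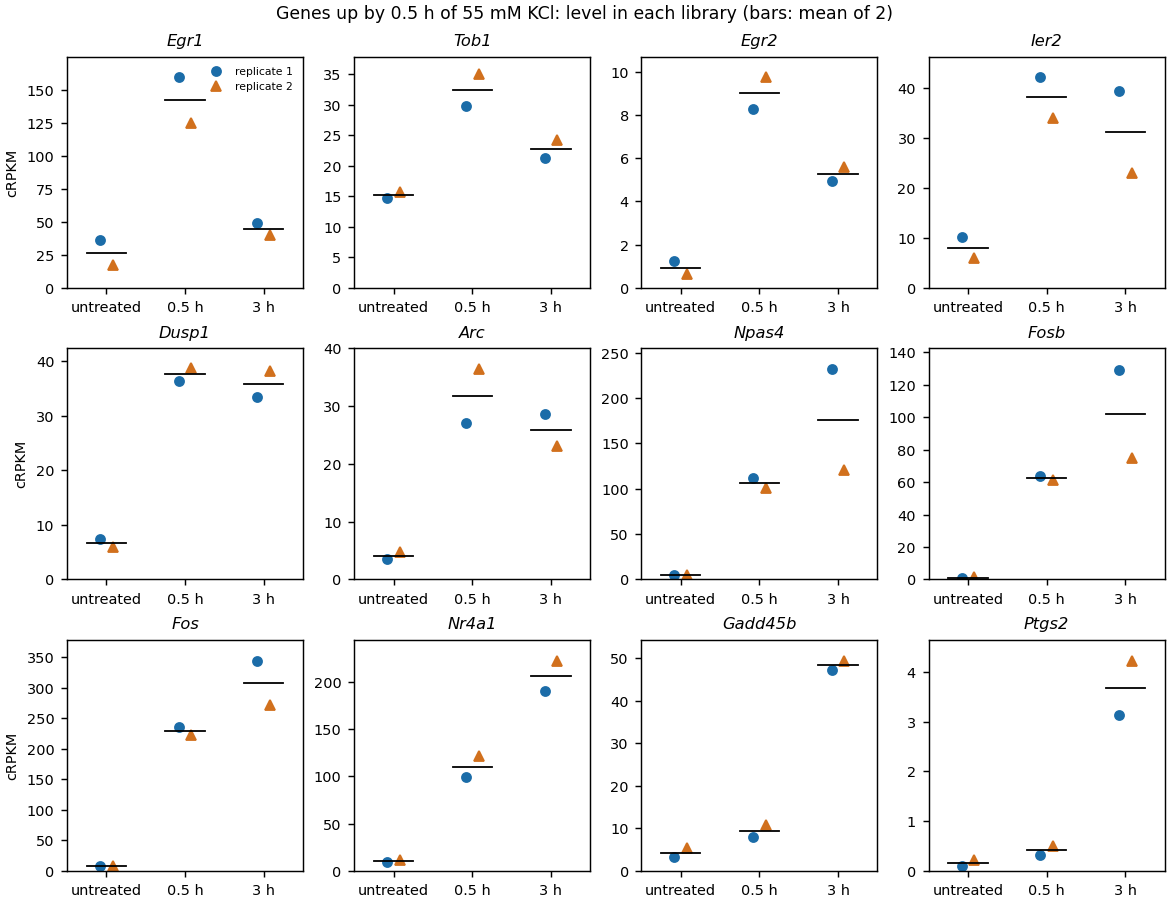
Level in cRPKM (y axis, from 0) of 12 genes that were up by 0.5 h, in untreated neurons and after 0.5 h and 3 h of KCl (x axis), with circles for replicate 1, triangles for replicate 2 and bars for the mean of 2. Egr1 and Tob1 (top left) fell, Dusp1 and Arc overlap between the times, and the 3 h libraries of Npas4 and Fosb are far apart.

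In 28 genes the level was higher again at 3 h. Their median was 1.76-fold above untreated neurons at 0.5 h and 6.00-fold at 3 h, and 11 of them were at least 2-fold above at 0.5 h. With limma 17 of the 28 stayed in the class, and without the block 19. Ptgs2, the inducible cyclooxygenase of prostaglandin synthesis, stood at 0.09 and 0.21 cRPKM in untreated neurons, 0.32 and 0.51 at 0.5 h and 3.14 and 4.22 at 3 h, a rise of 9.64-fold between the times (log2 difference 3.27 ± 0.21, adjusted p = 0.0035, edgeR). Gadd45b (ENSMUSG00000015312), a stress protein linked to DNA demethylation, went from 7.88 and 10.78 to 47.20 and 49.41 cRPKM (2.48 ± 0.17). Gadd45g of the same family went from 68.08 and 85.32 to 178.07 and 217.51 (1.45 ± 0.07). These 3 multiplied further in both replicates.

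Transcription factors were among these 28 genes. Maff, a small Maf factor, stood at 1.24 cRPKM in both untreated libraries, 4.24 and 5.71 at 0.5 h and 24.82 and 20.01 at 3 h, 4.78-fold above 0.5 h (adjusted p = 0.0045, edgeR). The nuclear receptor Nr4a2 went from 29.91 and 28.97 at 0.5 h to 142.01 and 93.75 at 3 h (4.17-fold, adjusted p = 0.0045), and Csrnp1 from 2.04 and 2.70 to 13.55 and 8.12 (4.79-fold, adjusted p = 0.0095). Their 3 h libraries differ, yet each is above both 0.5 h libraries. The next 4 were named after their values were seen. Klf4, a Krüppel-like factor, went from 9.66 and 11.87 to 24.21 and 36.83 (2.96-fold, adjusted p = 0.0088). Nr4a1 (ENSMUSG00000023034), which was already 10.4-fold above untreated neurons at 0.5 h, went from 99.18 and 121.50 to 189.91 and 222.06 (1.97-fold, adjusted p = 0.0039). Fos (ENSMUSG00000021250), 28.0-fold above untreated neurons at 0.5 h, added less. It went from 236.75 and 222.75 cRPKM to 344.26 and 271.36, a log2 difference of 0.49 ± 0.12 (1.41-fold, adjusted p = 0.036; 0.102 without the block, 0.19 without 0.5 h replicate 1 and 0.135 without 0.5 h replicate 2). Its AP-1 partner Jun went from 57.56 and 55.17 to 62.67 and 62.73 (1.17-fold, adjusted p = 0.048). Jun's call was lost in 9 of 13 alternative fits, among them those without either 0.5 h library (0.421 and 0.477), without either untreated library (0.17 and 0.169), without the block (0.182) and with library totals (0.123).

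Further members that rose act on signalling. Gem, a small GTPase that restrains calcium channels, went from 7.89 and 9.61 cRPKM to 24.86 and 85.12, 5.87-fold (log2 difference 2.55 ± 0.43, adjusted p = 0.015, edgeR). Its replicate 2 library rose far more than its replicate 1 library. Rgs2, which shortens G protein signals, went from 20.01 and 23.98 to 57.67 and 49.66 (2.60-fold). Sik1, a kinase that holds CREB coactivators out of the nucleus, went from 15.98 and 16.60 to 27.70 and 22.53 (1.61-fold, adjusted p = 0.015, and 0.063 without 0.5 h replicate 1). Dusp5, a phosphatase of ERK, went from 4.21 and 6.73 to 9.72 and 8.81 (1.85-fold, adjusted p = 0.038, and 0.0821 without 0.5 h replicate 1). Without the block, Sik1 had an adjusted p of 0.0555 and Dusp5 of 0.0961. Fbxo33, a ubiquitin ligase subunit, went from 6.82 and 7.08 to 19.02 and 16.10 (2.66-fold). Rgs2, Sik1, Dusp5 and Fbxo33 were named after their values were seen. The steepest rise of the class was that of the transcript 4931440P22Rik, from 0.59 and 0.74 to 14.79 and 6.63 cRPKM (16.2-fold). Just inside the 1.5-fold limit that defines the class were Spty2d1, Ccno and Rgs2 (1.5-, 1.53- and 1.53-fold by 0.5 h). Just outside it were Btg1, Atf3 and Ppp1r15a (1.48-, 1.46- and 1.46-fold).

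Few genes were low at 0.5 h. Of the 14 at least 1.5-fold below untreated neurons, 1 was lower again at 3 h, 2 were higher and 11 were not called between the times. Txnip (ENSMUSG00000038393), which binds thioredoxin and restrains glucose uptake, stood at 31.66 and 47.00 cRPKM in untreated neurons, 18.39 and 30.16 at 0.5 h and 2.17 and 5.78 at 3 h. The fall between the times was 6.20-fold (log2 difference -2.63 ± 0.21, adjusted p = 0.0041, edgeR). The 3 groups did not overlap, although replicate 2 at 0.5 h came close to replicate 1 of the untreated neurons. Hes5, a Notch target outside the naming rule, had 12.43 and 15.92 cRPKM, then 2.98 and 2.5, then 6.67 and 1.70 (adjusted p = 0.45 between the times).

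Promoter sequence gives a view of these genes that the counts do not. The windows come from RefSeq (GRCm38.p6) and hold 250 bases before and 50 after each listed start. A promoter was found for 1 of the 2 genes that decayed, 20 of the 28 that rose again, 22 of the 34 not called, 237 of the 309 late starters and 133 of the 171 late falls. The motif TGACGTCA, the full cyclic AMP response element (CRE) to which CREB binds, was searched on both strands. It occurred in 5 of 26 windows of genes not called between the times, 1 of 25 of genes that rose again, 21 of 306 of late starters and 3 of 169 of late falls (19.2%, 4%, 6.86% and 1.78%). It was in 1.79% of all promoters of this length and 2.74% of those of tested genes. The half-site TGACG, which each full CRE contains on both strands, was in 61.5% of the windows of the 64 early genes, 37.3% of late starters, 26.6% of late falls, 28.3% of tested genes and 20.8% of all promoters. Genes with a full CRE were Dusp1, Btg2, Arl4d, Cbx8 and Ccnl1 among those not called and Maff among those that rose again. Pcsk1, Areg, Ell2, Errfi1, Scg2 and Creb5 were 6 of the 21 late-starter windows with it, and genes named in this paragraph were chosen after their values were seen. The bases from 200 to 1 before the start are printed here for genes of different course that hold such motifs, 5′ to 3′ on the strand of the gene, with TGACG or its reverse complement in capitals. Fos has 2 half-sites and no full CRE, Dusp1 has its full CRE 143 bases before the start, Btg2 at 166, Maff at 29 and Pcsk1 at 78 (first base of the motif).
Fos (chr12:85473690-85473889, + strand): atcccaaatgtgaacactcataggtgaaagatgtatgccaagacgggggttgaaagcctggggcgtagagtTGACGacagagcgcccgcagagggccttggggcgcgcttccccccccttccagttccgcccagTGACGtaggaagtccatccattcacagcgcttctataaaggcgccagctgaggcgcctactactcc
Dusp1 (chr17:26508473-26508672, - strand): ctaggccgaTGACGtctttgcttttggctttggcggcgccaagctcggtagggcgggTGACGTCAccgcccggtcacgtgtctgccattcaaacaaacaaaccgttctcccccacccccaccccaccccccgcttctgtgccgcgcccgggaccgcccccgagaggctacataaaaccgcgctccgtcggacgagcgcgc
Btg2 (chr1:134079156-134079355, - strand): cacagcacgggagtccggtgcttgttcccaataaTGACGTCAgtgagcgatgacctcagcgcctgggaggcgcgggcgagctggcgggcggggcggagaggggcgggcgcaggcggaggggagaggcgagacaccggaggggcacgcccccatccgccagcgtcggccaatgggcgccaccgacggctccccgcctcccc
Maff (chr15:79347320-79347519, + strand): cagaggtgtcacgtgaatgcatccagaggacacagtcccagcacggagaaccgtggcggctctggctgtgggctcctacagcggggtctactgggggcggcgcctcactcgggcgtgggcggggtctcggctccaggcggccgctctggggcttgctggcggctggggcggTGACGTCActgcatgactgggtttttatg
Pcsk1 (chr13:75089657-75089856, + strand): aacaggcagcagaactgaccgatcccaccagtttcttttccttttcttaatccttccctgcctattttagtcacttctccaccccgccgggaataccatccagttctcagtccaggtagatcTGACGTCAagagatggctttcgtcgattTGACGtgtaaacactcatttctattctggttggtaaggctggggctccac
A match to these letters is a description of the window and does not show that a factor binds there. The 5 genes fell into different classes: Dusp1 and Btg2 were not called between the times, Fos and Maff were higher again at 3 h and Pcsk1 started late.

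Other motifs were searched in the same windows on both strands. The CArG box, the site of serum response factor, was in 5 of 26 windows of genes not called between the times, all of them of Egr2 and Zfp36, in 1 of 25 of genes that rose again (Dusp5), in 2.29% of late starters, in 1.39% of tested genes and in 1.63% of all promoters. The AP-1 site TGANTCA was in 1 of the 52 windows of early genes (Csrnp1), in 8.82% of late starters, among them Bdnf and Tnfaip6, in 7.69% of late falls, in 5.33% of tested genes and in 7.81% of all promoters. The Egr site GCGNGGGCG was in 21.2% of early windows, 12.1% of late starters, 7.69% of late falls, 9.88% of tested genes and 5.55% of all promoters. The share of late starters with an AP-1 site was thus close to that of late falls. Some genes have several windows, and windows of a gene overlap.

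The early genes were short. Their median span from start to end was 5.46 kb over 58 of the 64 genes with a span in GENCODE vM21, against 24.4 kb for all tested genes. It was 8.34 kb for those that rose again, 4.25 kb for those not called between the times, 35.0 kb for late starters and 20.2 kb for late falls. A span under 10 kb was found for 65.5% of early genes, 20% of late starters and 24.8% of tested genes. Spans over 100 kb were found for 1.72%, 19.7% and 14.9%. The median number of exons was 3 for early genes, 7 for late starters, 4 for late falls and 8 for tested genes. The quartile range of late starters (13.5 to 80.8 kb) lay largely within that of tested genes (10.1 to 59.9 kb) at its lower end, while that of early genes (3.24 to 12.3 kb) did not reach that of late starters.

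Late starters were the largest group with a clear course. Their median rise between the times was 2.49-fold, 52 rose at least 4-fold and 67 were under 1 cRPKM in untreated neurons. In 303 of the 309 both 3 h libraries were above both 0.5 h ones, against 2332 of all 2477 genes called higher. With limma 188 of the 309 stayed in the class, with library totals 259, without the block 253, and with any 1 library left out between 219 (0.5 h replicate 2) and 271 (3 h replicate 1). Fosl1 (ENSMUSG00000024912), the AP-1 member Fra-1, stood at 0.16 and 0.18 cRPKM in untreated neurons, 0.13 and 0.27 at 0.5 h and 8.16 and 4.61 at 3 h (34.1-fold between the times, log2 difference 5.09 ± 0.44, adjusted p = 0.0045, edgeR). The gene was near 0 at both earlier points and clearly expressed in both late libraries. Its relative Fosl2 went from 49.66 and 32.99 to 131.39 and 90.96 cRPKM (2.85-fold).

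Other transcription factors also started late. Nr4a3, a nuclear receptor of the same family as Nr4a1 and Nr4a2, stood at 44.32 and 41.19 cRPKM in untreated neurons, 48.54 and 42.85 at 0.5 h and 207.22 and 194.07 at 3 h (4.64-fold between the times, adjusted p = 0.002, edgeR). Nr4a1 and Nr4a2 were already high at 0.5 h, so Nr4a3 took a course of its own in the family. Crem, whose short form represses CREB targets, went from 2.32 and 2.86 to 10.11 and 15.63 (5.16-fold). Rorb, a retinoic acid receptor-related factor, went from 2.60 and 2.41 to 10.20 and 18.12 (5.80-fold). Nfil3, a repressor of clock-controlled genes, went from 19.95 and 14.33 to 101.01 and 71.44 (5.30-fold), after a fitted 1.30-fold difference at 0.5 h that kept it out of the late class.

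Late starters also hold secreted factors and their processing enzymes. Bdnf (ENSMUSG00000048482), a neurotrophin that strengthens synapses, stood at 7 and 11.73 cRPKM in untreated neurons, 7.47 and 11.75 at 0.5 h and 55.49 and 42.43 at 3 h (5.62-fold, log2 difference 2.49 ± 0.32, adjusted p = 0.0086, edgeR). Pcsk1, a convertase that cuts prohormones, went from 6.79 and 11.01 to 64.97 and 47.75 (7.02-fold, adjusted p = 0.0081). For both genes replicate 2 was the higher library before 3 h and the lower one at 3 h. The growth factor Fgf10 went from 0.33 and 0.35 to 3.11 and 1.5 (6.96-fold), and the matrix protein Thbs1, which promotes synapse formation, from 1.93 and 1.82 to 10.01 and 28.61 (10.0-fold). Nptx2, a pentraxin that clusters AMPA receptors, went from 6.55 and 6.92 to 17.29 and 18.22 (2.78-fold). The receptor genes S1pr3 (2.51 and 4.56 to 17.76 and 53.14 cRPKM) and Adgrg3 (0.17 and 0.09 to 1.23 and 1.21) rose as well. At 3 h Thbs1 and S1pr3 were far higher in replicate 2 than in replicate 1.

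Some of the steepest rises did not belong to a class. Cnn1, a calponin of smooth muscle, went from 0.11 and 0.07 cRPKM at 0.5 h to 1.82 and 12.53 at 3 h, and Gprc5a, an orphan receptor, from 0.02 and 0.05 to 0.86 and 2.26. Both were fitted more than 1.2-fold below untreated neurons at 0.5 h, from levels near 0, and so were not late starters. Atf3, a stress-induced transcription factor, went from 4.55 and 3.91 to 34.28 and 52.90 (10.7-fold) after a 1.46-fold difference by 0.5 h. Ptger4, a receptor for the prostaglandin that Ptgs2 helps to make, went from 0.12 and 0.21 to 1.92 and 1.40 (10.9-fold), and C2cd4b from 1.08 and 1.24 to 14.08 and 11.65 (11.7-fold). The adjusted p of the 5 ran from 0.002 to 0.01 (edgeR), and none lost its call in an alternative fit.

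**Figure D3:**
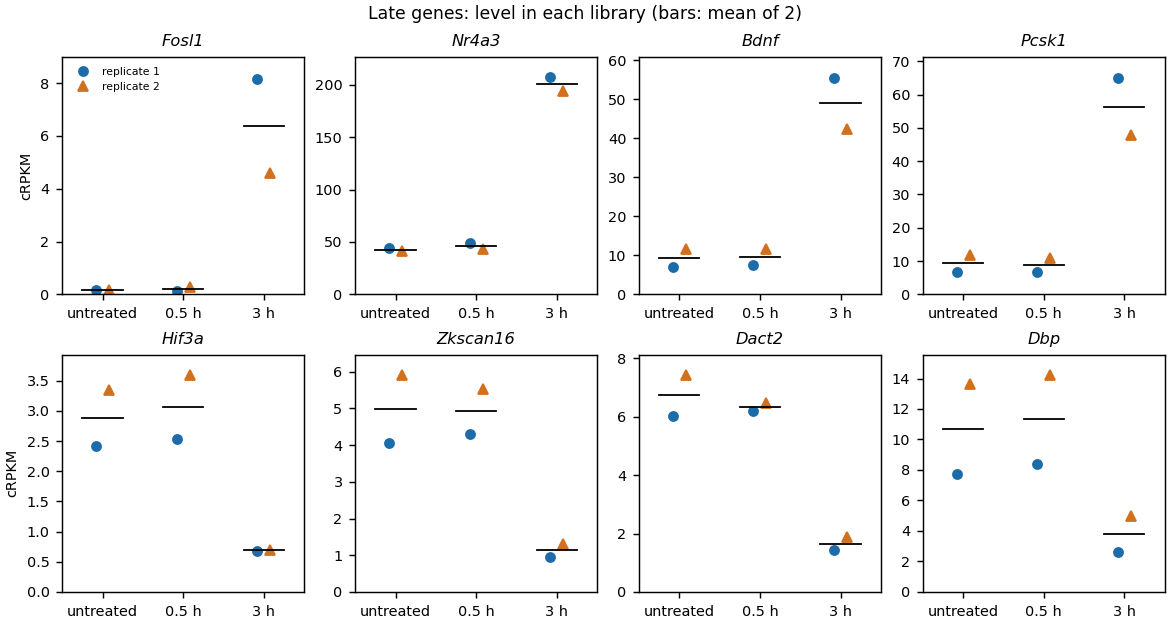
Level in cRPKM (y axis, from 0) of 4 late starters and 4 late falls in each library (x axis: untreated, 0.5 h, 3 h), with circles for replicate 1, triangles for replicate 2 and bars for the mean of 2. In every panel both 3 h libraries lie beyond all 4 earlier libraries.

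Late falls were shallower than late rises. The 171 genes had a median fall of 2.25-fold, 4 fell at least 4-fold and 57 ended under 1 cRPKM at 3 h. In 170 of them the times did not overlap, against 2314 of all 2484 genes called lower. With limma 99 of the 171 stayed in the class, and without the block 134. Zkscan7 (ENSMUSG00000063488), a zinc finger gene, stood at 1.27 and 1.24 cRPKM in untreated neurons, 1.39 in both libraries at 0.5 h and 0.24 and 0.28 at 3 h (5.10-fold lower, log2 difference -2.35 ± 0.14, adjusted p = 0.0032, edgeR). Zkscan16 went from 4.31 and 5.53 to 0.96 and 1.31 (4.14-fold lower). Hif3a, a hypoxia-inducible factor subunit, stood at 2.53 and 3.60, then 0.68 and 0.70. These levels were low at 3 h in both libraries and high in all 4 earlier ones.

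Regulators of signalling pathways were among the late falls. Dact2, a modulator of Wnt signalling, went from 6.21 and 6.46 cRPKM to 1.44 and 1.87 (3.66-fold lower, adjusted p = 0.003, edgeR), and Nrarp, a feedback inhibitor of Notch, from 7.72 and 7.25 to 2.93 and 1.51 (3.28-fold lower). Dbp, a clock output factor, went from 8.41 and 14.24 to 2.59 and 4.96 (2.89-fold lower, adjusted p = 0.003, and 0.0751 without the block). Fgf18, a growth factor, went from 3.89 and 3.54 to 1.49 and 1.29. Tubb3, a neuronal tubulin and the only pan-neuronal marker called between the times, stood at 606.80 and 453.49 cRPKM in untreated neurons, 569.08 and 399.68 at 0.5 h and 253.33 and 158.09 at 3 h (2.26-fold lower, adjusted p = 0.0047, and 0.0773 without the block). Outside the class, the collagen gene Col15a1 went from 7.17 and 4.15 to 1.29 and 1.19 (4.20-fold lower). The lowest call was that of Gm5263, from 0.86 and 1.29 to 0.06 and 0.25 cRPKM, with an adjusted p of 0.024 and of 0.0672 without 0.5 h replicate 2.

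Gene lists from textbook knowledge showed the groups that moved. They were chosen with earlier results of these data known, and each is given by its counts beside the background of 15.6% called in each direction. That background is of the main fit. Without the block, 1015 of all 15895 genes were called higher and 774 lower. Fits that leave out a library also have another background, given above, so their list counts are not to be set against 15.6%. Of the 32 rapid transcription factors, 19 were higher at 3 h than at 0.5 h and 2 were lower, Egr1 and Klf10. The median log2 difference was 0.75 between the times and 0.75 by 0.5 h. Klf10, outside the naming rule, had 9.32 and 10.59 cRPKM at 0.5 h and 4.80 and 5.25 at 3 h (log2 difference -0.91 ± 0.09, adjusted p = 0.0052, edgeR), and 10.02 and 12.41 in untreated neurons. Of 35 activity effectors, 26 were higher and 1 lower, with a median of 1.30 between the times and of 0.05 by 0.5 h. The exception was Igf1, a growth factor outside the naming rule, with 0.16 and 0.28 cRPKM at 0.5 h and 0.10 and 0.11 at 3 h. Igf1 lost its call in 8 alternative fits, among them DESeq2 (adjusted p = 0.173) and those without 0.5 h replicate 1 (0.113), 0.5 h replicate 2 (0.362) or 3 h replicate 2 (0.115). Without 3 h replicate 1, 21 factors were higher and 7 lower, and 26 effectors were higher and 6 lower. Without 3 h replicate 2 the counts were 26 and 4, and 31 and 1.

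Kinases, small GTPases and inhibitors of signalling moved with the effectors. Of 28 inducible kinases and small GTPases, 15 were higher and 1 lower, with a median log2 difference of 0.72 between the times. Sik2 and Sik3, relatives of Sik1, went from 10.46 and 8.82 to 25.13 and 22.30 cRPKM and from 15.15 and 15.84 to 35.69 and 36.91. Pim1, a survival kinase, went from 2.13 and 1.79 to 9.75 and 6.56 (4.35-fold, adjusted p = 0.0038, edgeR). Of 32 signalling inhibitors, 18 were higher and 4 lower (median 0.39). The phosphatase genes Dusp14 (5 and 5.14 to 30.41 and 18.62 cRPKM) and Dusp10 (2.26 and 2.65 to 5.93 and 7.02) rose, while Socs2, an inhibitor of cytokine signals, fell from 18.42 and 15.51 to 9.73 and 7.97. Dusp10 and Dusp14 started late, whereas Dusp1 was high at 0.5 h, and Dusp2 and Dusp7 were among the 4 inhibitors called lower. Without the block, 11 kinases and 10 inhibitors were called higher. The inhibitors called higher also numbered 10 without 0.5 h replicate 1 and 11 without replicate 2.

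Machinery of gene expression tended to higher values. Of 31 genes of transcription elongation, 16 were higher and 3 lower (median 0.38). The super elongation complex subunits Aff1 (4.78 and 4.85 to 15.60 and 21.92 cRPKM) and Ell2 (1.98 and 2.56 to 6.76 and 12.72) rose 4.06- and 4.37-fold. Cyclin K (Ccnk), which partners the kinase Cdk12, rose 2.12-fold. Of 60 general splicing factors, 26 were higher and 2 lower (median 0.26), with small sizes: Sf1, which binds the branch point, went from 37.23 and 35.72 to 54.87 and 53.47 (1.57-fold). Tia1, a splicing and stress granule protein, fell from 25.41 and 26.26 to 14.47 and 14.73. Of 30 neural splicing regulators, 5 were higher and 3 lower, near the background. Ptbp1, a repressor of neural exons, went from 22.38 and 22.54 cRPKM at 0.5 h to 54.69 and 97.95 at 3 h (3.51-fold, adjusted p = 0.01, edgeR). Elongation genes called higher numbered 9 without the block, and 8 and 6 without 0.5 h replicate 1 and 2. For the splicing factors those counts were 12, 11 and 6.

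Lists of protein handling genes had small positive medians. Of 28 endoplasmic reticulum folding genes, 13 were higher and 0 lower by edgeR (17 and 2 at an unadjusted p under 0.05, 15 and 1 by DESeq2, 7 and 1 with library totals or limma; median 0.30). Dnajb9, a co-chaperone induced by misfolded protein, went from 23.67 and 24.84 to 45.67 and 67.20 cRPKM (2.42-fold), and Ern1, the sensor kinase IRE1, from 2.47 and 2.66 to 4.44 and 4.74. Of 23 heat shock genes, 8 were higher and 0 lower by edgeR (12 and 0 at an unadjusted p under 0.05, 11 and 0 by DESeq2; median 0.22). Bag3, a co-chaperone, had 2.20 and 3.67 cRPKM at 0.5 h and 10.64 and 50.05 at 3 h, with replicate 2 far above replicate 1. Of 34 genes of the integrated stress response, 14 were higher and 2 lower (median 0.09). Atf4, its main transcription factor, rose from 231.59 and 200.43 to 363.51 and 332.62 (1.70-fold). Without the block 6 folding, 3 heat shock and 4 stress response genes were called higher. Without 0.5 h replicate 1 the counts were 5, 3 and 5, and without replicate 2 they were 3, 3 and 5. Of 74 ribosomal protein genes, 22 were higher with a median of 0.38, but the count was 4 with library totals, 0 with limma, 1 without the block, 0 without 0.5 h replicate 2 and 41 with DESeq2.

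Potassium channels and glutamate receptors had more genes called lower than the background. Of 55 potassium channel genes, 20 were lower and 2 higher (median log2 difference -0.35). Kcnk3, a leak channel, went from 3.81 and 3.41 to 1.70 and 1.32 cRPKM (2.28-fold lower, adjusted p = 0.0052, edgeR). Kcns2, a modulatory subunit, went from 2.21 and 2.56 to 1.00 in both libraries. The inward rectifier Kcnj2, named after its values were seen, was higher (0.65 and 0.97 to 1.25 and 1.64). Of 33 glutamate receptor genes, 11 were lower and 1 higher (median -0.33). The metabotropic receptor Grm7 went from 21.64 and 21.04 to 13.84 and 11.98, and the kainate receptor Grik1 from 7.59 and 9.27 to 4.50 and 5.38. Of 40 calcium and sodium channel genes, 7 were lower and 0 higher by edgeR (14 and 1 at an unadjusted p under 0.05, 15 and 1 by DESeq2; median -0.30). Of 34 postsynaptic scaffold and adhesion genes, 9 were lower and 4 higher, and of 33 presynaptic genes, 4 were lower and 1 higher. The share lower was near the 15.6% of all genes for the calcium and sodium channels and under it for the presynaptic genes. Nlgn3, a postsynaptic adhesion protein, went from 25.09 and 24.51 to 15.08 and 13.97.

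The size of these neuronal falls depended on the 3 h library. The median of the potassium channels was -0.61 without 3 h replicate 1 and -0.15 without 3 h replicate 2. That of the glutamate receptors was -0.50 and -0.15, and that of the presynaptic genes -0.56 and -0.05. Neuronal markers moved with them: the medians of the pan-neuronal, excitatory and interneuron markers were -0.39, -0.60 and -0.66 when 3 h replicate 1 was left out, but 0.09, 0.03 and 0.03 when replicate 2 was. Pan-neuronal markers summed to 3541 and 3109 cRPKM at 0.5 h and 3206 and 2198 at 3 h (replicates 1 and 2), a median log2 difference of -0.18 over 13 genes. In replicate 1 most of the fall in this sum was that of Tubb3, the late fall given above. Astrocyte markers summed to 1231 and 1922 at 0.5 h and 1247 and 2447 at 3 h. Excitatory neuron markers summed to 514.1 and 588.5, then 484.6 and 362.0, and interneuron markers to 464.8 and 694.8, then 383.4 and 467.3. The part of these marker differences in the channel and synapse results was not tested. The median of the calcium and sodium channels was -0.54 without 3 h replicate 1 and -0.04 without 3 h replicate 2. That of the postsynaptic genes was -0.54 and -0.05. Without the block 8 potassium channel, 4 glutamate receptor, 3 calcium and sodium channel and 5 postsynaptic genes were called lower. Over all 15895 genes that fit called 774 lower. Without 0.5 h replicate 1 the medians of the potassium channels and glutamate receptors were -0.44 and -0.37, and without replicate 2, -0.28 and -0.29.

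Progenitor markers were the cell type list with most calls, 7 of 12 higher and 0 lower by edgeR (8 and 0 at an unadjusted p under 0.05, and by DESeq2). That was 58.3% higher, against 15.6% of all genes tested. With library totals 5 were called higher, with limma 4 and without the block 1. Vim, an intermediate filament protein, went from 103.20 and 93.08 cRPKM at 0.5 h to 307.16 and 460.25 at 3 h (4.10-fold, adjusted p = 0.0058). The division genes Mki67 (7.72 and 5.25 to 9.63 and 8.61), Cdk1 (3.51 and 2.67 to 4.85 and 4.08) and Ccnb1 (6.53 and 4.82 to 9.54 and 8.67) moved 1.51- to 1.71-fold. Vim alone kept its call without the block, where the other 3 had adjusted p of 0.226, 0.181 and 0.122. Cdk1 had 0.0807 without 0.5 h replicate 1, and Cdk1 and Mki67 had 0.0829 and 0.0846 without replicate 2. Microglial markers had 0 called in either direction among 10 tested by edgeR, DESeq2 and limma (1 higher and 0 lower at an unadjusted p under 0.05 in edgeR).

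The list with the largest share called lower was that of zinc finger genes. The list took all genes named Zfp, Zkscan or Zscan with a number, most of which encode C2H2 proteins that bind DNA and often repress transcription. The name pattern also takes a few others, such as Zfp36, which binds messenger RNA. Of 350 tested, 137 were lower at 3 h than at 0.5 h (39.1%, against 15.6% of all genes) and 25 higher (7.14%). The fitted difference was below 0 for 250 of them (71.4%, against 52.8% of genes tested), with a median of -0.27 on the log2 scale between the times and -0.01 by 0.5 h. They make up 2.20% of genes tested and 32 of the 171 late falls (18.7%), but 2 of the 309 late starters. Those 2 included Zfp184, which went from 1.88 and 1.39 to 10.67 and 7.35 cRPKM (5.79-fold, adjusted p = 0.002, edgeR). The median was -0.22 without 3 h replicate 1 and -0.32 without 3 h replicate 2, so it was below 0 with either late library. It was -0.35 with library totals and -0.28 with limma. Without 0.5 h replicates 1 and 2 it was -0.24 and -0.31. Without the block 73 zinc finger genes were called lower and 16 higher, against 774 and 1015 of all 15895 genes tested. Of the 40 related Zbtb genes, 14 were lower and 8 higher, but 5 and 3 without 0.5 h replicate 1, 4 and 3 without 0.5 h replicate 2, and 8 and 4 without the block. Zbtb46 went from 6.02 and 6.05 to 2.29 and 2.41, and Zbtb10 from 4.75 and 3.99 to 8.06 and 6.78.

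**Figure D4:**
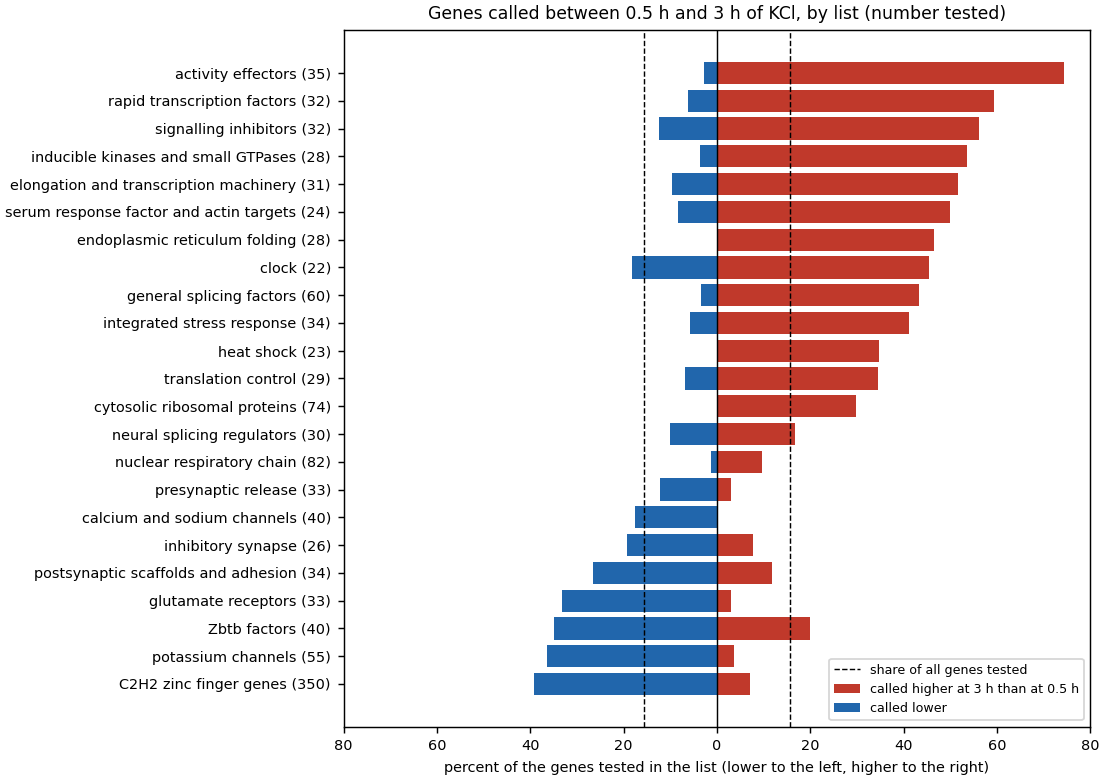
Percent of the genes tested in each list (number tested in brackets) that were called higher (right) or lower (left) at 3 h than at 0.5 h, with dashed lines at the 15.6% of all tested genes called in each direction. Activity effectors and rapid transcription factors extend furthest to the right, and numbered zinc finger genes and potassium channels furthest to the left.

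Clock and glucose genes were called in both directions, against 15.6% of all genes in each. Of 22 clock genes, 10 were higher and 4 lower (45.5% and 18.2%). Per1, a period repressor named after its values were seen, went from 17.13 and 23.73 to 51.03 and 41.57 cRPKM (2.43-fold, adjusted p = 0.013, edgeR). Arntl, an activator of the clock, went from 10.67 and 9.98 to 15.62 and 16.61. Of 31 glucose genes, 8 were higher and 7 lower (25.8% and 22.6%). The transporters Slc2a1, which imports glucose (8.14 and 11.08 to 20.38 and 22.16 cRPKM), and Slc16a1, which carries lactate (17.06 and 15.31 to 41.27 and 34.25), rose. Arrdc4, a relative of Txnip, fell from 18.13 and 18.10 to 7.10 and 11.15. With library totals 6 glucose genes were higher and 10 lower, without 0.5 h replicate 1 the counts were 6 and 3, and without 0.5 h replicate 2 or without the block they were 4 and 3. Of 23 Notch genes, 3 were higher and 4 lower (13% and 17.4%), near the share of all genes in each direction. Among them Rbpj, the DNA-binding partner of Notch, rose 1.83-fold and Jag2, a ligand, fell 2.02-fold.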

How the data were processed

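RNA-seq of 6 libraries, 2 per group, was used. Per the labels, RNA was taken with TriReagent and libraries were made with the TruSeq kit V2. The submitters' processing notes name Bowtie and mm9; versions, annotation and multi-mapping were not given in the sources used here. The authors deposited a whole-number count per gene, without normalization, and an RPKM value named cRPKM, whose c is not defined there. No value was given for 1114 of 22667 genes, and 94.9% of the others had a symbol.

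Counts were tested with edgeR 4.0.16 (R 4.3.3): TMM, filterByExpr with a minimum count of 10, and 1 quasi-likelihood fit of all 6 libraries with group and replicate number (2 residual degrees of freedom). SE is the log2 difference divided by the root of F, and intervals are 95%. The labels do not say that the numbers pair samples. Replicate differences correlated between groups with r of 0.81, 0.58 and 0.61 across genes, which are not independent. On data simulated for this comparison with a replicate difference built in (15895 genes, 200 changed), the fit with the block recovered 94% of 2-fold and 98% of 4-fold changes, and 6.8% of its calls were false, above the nominal 5%. Without the block it recovered 26% and 77%, with no false calls. The simulation gave every group the same replicate difference and every gene the same spread. In the data the replicate difference at 3 h departed from those of the other groups (r of 0.58 and 0.61). The simulated rates therefore do not carry over to these libraries. Alternatives were DESeq2 1.42.0, limma 3.58.1 on log2(cRPKM + 0.5), library totals, no filter, 100 counts in 2 libraries, the 4 KCl libraries, no block and each library left out. The members and 44 gene lists were chosen with earlier results of these data known. The naming rule took the 10 largest rises, the 10 largest falls, up to 10 per class with the largest change and up to 4 per list with the smallest p, among called genes with a symbol, at least 1 cRPKM at 0.5 h or 3 h and no overlap of the times. For early genes not called it took the 10 with the largest change by 0.5 h. Genes outside this naming rule were chosen after their values were seen. Promoter motifs and gene spans used GRCm38 annotations, for description.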

Additional observations from a re-analysis of the deposited data

Results flagged for a closer look

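Of the genes called at least 2-fold apart between the times, 4 lay below both untreated libraries at 0.5 h and above both at 3 h, by at least 1.2-fold each way. Since both times share the untreated libraries, edgeR's contrast of 3 h with 0.5 h tests how far the 2 effects are apart. Inhba, which encodes the activin A subunit, stood at 0.78 cRPKM in both untreated libraries, 0.58 and 0.62 at 0.5 h and 1.91 and 2.09 at 3 h (log2 difference 1.82, adjusted p = 0.0036). Mpzl3, a membrane protein, stood at 1.90 and 1.83, then 1.73 and 1.40, then 3.26 and 3.11 (1.11, adjusted p = 0.0081). Fam89a stood at 0.76 and 0.78, then 0.61 and 0.59, then 1.35 and 1.29 (1.21, adjusted p = 0.0074). The olfactory receptor gene Olfr545 stood at 0.55 and 0.38, then 0.24 and 0.32, then 1.75 and 0.80 (2.27, adjusted p = 0.02; 0.139 without 0.5 h replicate 1 and 0.0531 without the block). That both 3 h libraries were above the other 4 libraries in all 4 genes follows from how they were picked. The 0.5 h libraries enter both the picking and the test, and no test of the small fall by 0.5 h is given here.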

How the results depend on the processing

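No named gene called with all libraries was called the other way in any of the 13 alternative fits. Among those not called, Ccn1, Arc and Junb changed sign with the 3 h library left out. Their log2 differences were -0.405, 0.187 and 0.907 without KCl 3 h replicate 2. Without KCl 3 h replicate 1 they were 0.423, -0.593 and -0.402. Of 189 named genes, 55 lost their call with no replicate block, 38 and 48 without 0.5 h replicate 1 and 2, 9 with library totals and 14 with limma. The cause was not tested, apart from the fewer libraries of a fit that leaves 1 out.

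Over the fits that leave out 1 library, genes called higher ranged from 998 to 5006 and lower from 680 to 5487. Genes up by 0.5 h and then lower ranged from 1 to 11, higher again from 24 to 44 and not called from 18 to 54. Late starters ranged from 240 to 443 and late falls from 138 to 246. Genes down by 0.5 h and then higher ranged from 6 to 19, and lower again from 1 to 3. The highest totals of genes called higher and lower came from the fit without 3 h replicate 1, which holds no spread of the 3 h group. A class can keep its total while its members change. With no replicate block the counts were 1015 higher, 774 lower, 1 early gene then lower and 0 down then higher. With limma 1557 were higher, 17 early genes higher again, 202 late starters, 104 late falls and 1 down then higher. The last was also 1 with DESeq2 and 0 with a 100-count filter. A 2-fold limit by 0.5 h left 11 genes higher again, 17 not called, and 0 and 0 down then higher or lower. A 1.2-fold limit, added after seeing the data, gave 6 then lower and 79 higher again.

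With 2 libraries per group and a 3 h pair that differs more than the others, the spread rests on few degrees of freedom. Intervals cover these samples only.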

Other observations

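Of 32 genes of TGF-beta, BMP and Id signalling, 11 were higher and 4 lower between the times (1 and 0 without the block, 4 and 0 without 0.5 h replicate 2), and of 24 serum response factor and actin targets, 12 were higher and 2 lower (7 and 0 without the block or without 0.5 h replicate 2, 5 and 0 without 0.5 h replicate 1). Vcl, which links actin to adhesions, went from 7.52 and 10.67 cRPKM at 0.5 h to 16.39 and 23.50 at 3 h (2.31-fold, adjusted p = 0.003, edgeR). Of 30 neurotrophic and growth factor genes 8 were higher and 7 lower (26.7% and 23.3%, but 2 and 2 genes without the block). Of 27 neuropeptide and prohormone genes 5 were higher and 2 lower (18.5% and 7.41%). Over all genes tested 15.6% were called in each direction. Cartpt, which encodes a neuropeptide precursor, stood at 0.13 and 0.12 cRPKM at 0.5 h and 1.12 and 0.93 at 3 h (adjusted p = 0.005). Of 22 sterol genes 5 were higher and 3 lower (22.7% and 13.6%, but 0 and 1 genes without the block). Srebf1, a lipid synthesis regulator, went from 24.79 and 31.46 to 12.83 and 15.73 (adjusted p = 0.0038).

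The identifier with the highest level among early genes that rose again has no name in the annotation used. ENSMUSG00000090847 stood at 2065.26 and 2056.70 cRPKM in untreated neurons, 3620.34 and 3097.41 at 0.5 h and 9275.02 and 8433.41 at 3 h (log2 difference between the times 1.48 ± 0.11, adjusted p = 0.004). It was chosen after its values were seen.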
